A study of Mus musculus with 8 samples.

Results

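The genes described here build the nuclear pore or carry cargo through it. They were chosen by symbol, as the nucleoporins (Nup genes, with Tpr, Pom121, Seh1l, Sec13 and Rae1), the importins, transportins and exportins (Kpna, Kpnb, Ipo, Tnpo and Xpo genes, with Cse1l), Ran with its partners (Rangap1, Rcc1 and the Ranbp genes), and the mRNA export receptor Nxf1. The choice gave 53 genes among 10601 transcripts with a symbol, and all 53 were among the 10588 genes tested. The mice, of the C57BL/6 strain, formed 2 groups of 4, with 3 males in each. Bigenic mice carried the transactivator transgene Camk2α-tTA and the responder tetO-ΔNLS-hTDP-43, and so, once doxycycline was absent, made a human TDP-43 whose nuclear localization signal was disabled. The Camk2α promoter limits the transgene largely to excitatory neurons of the forebrain, whereas the RNA was taken from whole right cortex. Doxycycline was removed from the diet at 28 days of age and the cortex was taken 10 days later. Nontransgenic controls came from the same crosses and had the same diet, so neither transgene alone was examined.

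Large proteins and RNAs cross the nuclear envelope through the nuclear pore complex, a ring of nucleoporins with a central channel of flexible repeats, filaments on the cytoplasmic face and a basket on the nuclear face. Importins bind a localization signal in the cytoplasm and release their cargo in the nucleus when they meet Ran bound to GTP, while exportins leave the nucleus together with cargo and Ran-GTP. The classical signal, which TDP-43 carries, is read by importin-α together with importin-β1 (Kpnb1), and the ΔNLS form was built to lack it.

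The labels were checked with the transgene and with the endogenous gene. The human transcript (uc999vvf.1) averaged 35890 ± 5703 normalized counts in bigenic mice (SD, n = 4) and 29.0 ± 34.5 in nontransgenic mice. Endogenous Tardbp, which encodes mouse TDP-43, averaged 5180 ± 249 normalized counts against 6538 ± 420, a log2 change of -0.33 (adjusted p = 0.00645, limma with the Benjamini-Hochberg correction over all genes tested, as for every adjusted p below). A normalized count is a read count per transcript that the authors scaled between mice and rounded. Reads on genes numbered between 10.6 M and 31.9 M per mouse, as estimated from the spacing of the rounded values, and 3 reads were worth between 1.94 and 6.20 normalized counts. The smallest value of any of the 53 genes was 97, so no gene was near that floor.

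1 bigenic mouse stood apart. It had the lowest depth (10.6 M reads on genes, against 15.2, 23.5 and 31.9 M in the other bigenic mice and 20.6 to 29.0 M in nontransgenic mice). That mouse was the highest or the lowest of the 4 bigenic mice in 47 of the 53 genes. The share over all genes was not counted. Its median log2 deviation from the mean of the other 3, regardless of sign, was 0.335 across the 53 genes. Across all genes tested with a GC content it was 0.297, so the deviation was not particular to the transport genes. The log2 deviation of that mouse from the mean of the other 3 bigenic mice rose with the exon GC content of a gene. Pearson's r was 0.483 across the 53 genes and 0.368 across the 10297 genes tested that had a GC content. These are correlations across genes within the same libraries, which are not independent replicates. The values of that mouse are therefore named for the genes given mouse by mouse in which it decides a result, and the main counts are also given without it.

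Of the 53 transport genes, 15 passed the adjusted threshold of 0.05 (28.3%), when 35.9% of all genes tested did so. Higher expression in bigenic mice was called for 9 of the 53, against a background of 20.5% of all genes, and lower expression for 6, against 15.4%. As a whole, then, the transport genes were called no more often than other genes in this cortex. The range of the bigenic mice did not overlap that of the nontransgenic mice in 19 genes (35.8%), against 39.0% of all genes, and without the mouse of lowest depth in 26 (49.1%), against 48.6%. The median log2 change of the 53 was 0.12, compared with 0.03 for all genes tested, and the median size of change regardless of direction was 0.23 compared with 0.25. The 9 higher genes were Nup214, Nup50, Tpr, Ipo4, Ipo7, Ipo8, Tnpo2, Tnpo3 and Xpo4, and the 6 lower genes were Ran, Cse1l, Tnpo1, Ipo11, Ipo13 and Ranbp9. All 15 calls were also made without the bigenic mouse of lowest depth, when 24 of the 53 were called (45.3%, with 45.6% of all genes). In bulk tissue, fewer cells of a type and less RNA per cell cannot be told apart.

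**Figure D1:**
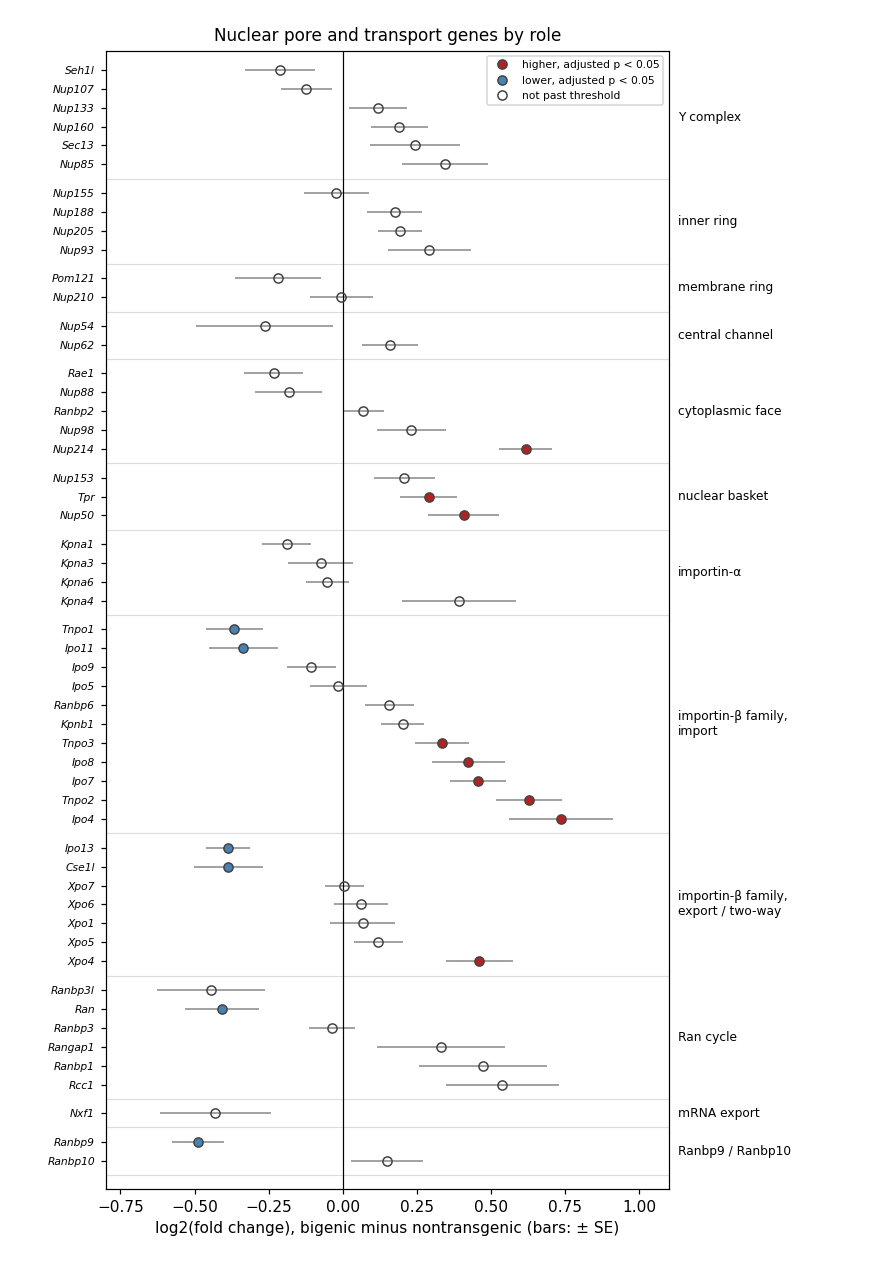
The log2 fold change of each of the 53 genes (x axis, bigenic minus nontransgenic; bars show ± SE of the limma fit, n = 4 mice per group), grouped by role from top to bottom. Filled points passed the adjusted threshold of 0.05, and they lie mostly in the importin-β family, where 10 of 18 genes are filled, while 3 of 22 nucleoporins are.

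The roles differed in how many of their genes were called. Of the 22 nucleoporins, 3 were higher and 0 were lower (13.6%), with a median log2 change of 0.17. Of the 18 genes of the importin-β family, to which nearly all importins, transportins and exportins belong, 6 were higher and 4 were lower (55.6%), with a median of 0.09. None of the 4 importin-α genes was called, and Ran itself was the only 1 of 6 genes of the Ran cycle that was. These are counts beside a background of 35.9%, and the difference between roles was not tested.

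The nucleoporin calls made with all mice were few and were spread over the substructures as follows, with no test between them. The Y complex, the outer ring of the scaffold, had 0 calls in 6 genes, the inner ring 0 in 4, the membrane ring 0 in 2 and the central channel 0 in 2. The cytoplasmic face had 1 call in 5 genes and the nuclear basket 2 in 3. Without the bigenic mouse of lowest depth, however, the Y complex (Nup160), the inner ring (Nup205 and Nup93) and the membrane ring (Pom121) had calls too.

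Nup214, a cytoplasmic filament protein that docks exportin-1 and the mRNA export machinery (uc008jeh.1, mm9 chr2:31829956-31909495, 37 exon blocks), gave 1009 normalized counts in the bigenic mouse of lowest depth and 1052, 1159 and 1266 in the others. The nontransgenic mice gave 756, 734, 745 and 679. All bigenic values lay above all nontransgenic values, and the log2 change was 0.62 (SE 0.09, adjusted p = 0.000779), the smallest adjusted p of the 53. Exons of Nup214 overlap those of Fam78a and 2 other genes on the opposite strand, and the counting of reads is not stated to use strand. The called genes Tnpo2, Tnpo3, Tpr and Ranbp9 also have exons that overlap those of genes on the opposite strand. So do some genes not called, such as Kpnb1. A stretch of the Nup214 promoter that holds a cAMP response element is shown because Nup214 was the only gene with that motif among the called genes with a promoter entry (RefSeq GRCm38.p6, chr2:31974395-31974424, plus strand, motif in capitals).
Nup214 promoter: accggcctgggTGACGTCAgtcacgcgcgc

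Nup50, a mobile basket protein that helps importin-α release its cargo (uc007xcq.1, mm9 chr15:84753831-84773385), gave 1553 normalized counts in the bigenic mouse of lowest depth, 1162, 1104 and 1107 in the other bigenic mice, and 924, 860, 864 and 1037 in nontransgenic mice. The groups did not overlap, and the log2 change was 0.41 (SE 0.12, adjusted p = 0.0255), or 0.29 without the mouse of lowest depth (adjusted p = 0.0106). Tpr, the coiled-coil protein that forms the basket (uc007cyb.2, mm9 chr1:152239968-152297062, 49 exon blocks), gave 8243 in the mouse of lowest depth, 7767, 6626 and 6475 in the other bigenic mice, and 6367, 5424, 5870 and 6056 in nontransgenic mice. The lowest bigenic value of Tpr exceeded the highest nontransgenic value by little, and its log2 change was 0.29 (SE 0.10, adjusted p = 0.039). Nup153, the third basket gene, which anchors the basket to the ring, did not pass with all mice (log2 change 0.21, SE 0.10, adjusted p = 0.137). Its bigenic mouse of lowest depth stood at 1241 normalized counts, under the other 3 at 1492, 1688 and 1623, and without that mouse its log2 change was 0.30 (adjusted p = 0.00489).

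None of the scaffold genes passed with all mice, although some log2 changes were as large as that of Tpr. In the Y complex, log2 changes ran from -0.21 (Seh1l) to 0.34 (Nup85), and Nup85 had groups that did not overlap although it did not pass (adjusted p = 0.0885). In the inner ring, Nup205, a large scaffold protein, likewise had groups that did not overlap, with 1007 normalized counts in the mouse of lowest depth, 945, 1059 and 1056 in the other bigenic mice and 905, 890, 837 and 923 in nontransgenic mice (log2 change 0.19, SE 0.07, adjusted p = 0.0645). Nup93, which links the inner ring to the channel, gave 364 in the mouse of lowest depth and 511, 514 and 588 in the other bigenic mice, against 410, 427, 364 and 392 in nontransgenic mice. With all mice Nup93 had a log2 change of 0.29 (adjusted p = 0.128), and without that mouse 0.43 (adjusted p = 0.00222). Only 53.0% of the 50-base windows of Nup93 exons are unique in the genome, so many of its reads could not have been counted. Without the mouse of lowest depth, 7 of the 22 nucleoporins were called higher (Nup153, Nup160, Nup205, Nup214, Nup50, Nup93 and Tpr). In that fit 1 was lower, namely Pom121, a membrane-anchored nucleoporin, at a log2 change of -0.36 (adjusted p = 0.00808). Together these calls made up 36.4% of the nucleoporins, when 45.6% of all genes were called. Ranbp2, the large SUMO ligase of the cytoplasmic filaments, gave between 9672 and 10475 normalized counts in bigenic mice and between 8868 and 10150 in nontransgenic mice, with a log2 change of 0.07 (SE 0.07, adjusted p = 0.46).

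The adaptor and the receptor of classical import were then compared. Of the importin-α genes, which recognise the signal itself, Kpna1 gave 3350 normalized counts in the bigenic mouse of lowest depth, 3623, 3718 and 3566 in the others, and 4477, 4022, 4188 and 3601 in nontransgenic mice. The groups overlapped through a single nontransgenic mouse, and the log2 change was -0.19 (SE 0.08, adjusted p = 0.0976). Kpna3 gave 1661 in the mouse of lowest depth, 2322, 2334 and 2201 in the other bigenic mice, and 2324, 2222, 2207 and 2138 in nontransgenic mice, a log2 change of -0.07 (SE 0.11, adjusted p = 0.623) that turned to 0.04 without that mouse. Kpna6 gave 3131 in the mouse of lowest depth, 2979, 2859 and 2941 in the other bigenic mice, and 3144, 2933, 2915 and 3366 in nontransgenic mice, a log2 change of -0.05 (SE 0.07, adjusted p = 0.61). Kpna2 was not analysed here.

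Kpna4, the close relative of Kpna3 (uc008pme.1, mm9 chr3:68871071-68931035), behaved differently in different bigenic mice. It gave 4184, 4702 and 4774 normalized counts in 3 of them, all above the nontransgenic values of 3326, 3034, 2640 and 2914, and 2457 in the mouse of lowest depth, below all nontransgenic values. With all mice its log2 change was 0.39 (SE 0.19, adjusted p = 0.136), and without that mouse 0.61 (SE 0.08, adjusted p = 0.000197). When the trend with GC content and exon length was taken out of every mouse, an alternative chosen after seeing the data, the log2 change of Kpna4 with all mice was 0.45 (adjusted p = 0.0416).

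Kpnb1, importin-β1, the receptor that carries importin-α and its cargo (uc007ldu.1, mm9 chr11:97021028-97049195), gave 7373 normalized counts in the bigenic mouse of lowest depth, 6821, 6412 and 6333 in the others, and 6032, 5631, 5731 and 5989 in nontransgenic mice. The groups did not overlap, and the log2 change of 0.20 (SE 0.07) lay just outside the threshold (adjusted p = 0.0525). Without the mouse of lowest depth it was 0.16 (adjusted p = 0.042).

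Of the 11 import receptors of the importin-β family, 5 were called higher and 2 lower (63.6%, with 35.9% of all genes). The difference was not tested. The largest log2 changes were those of Ipo4 and Tnpo2. Ipo4, an importin for histones and ribosomal proteins (uc007tzp.1, mm9 chr14:56244237-56256732), gave 3607 normalized counts in the bigenic mouse of lowest depth, 2130, 2045 and 2045 in the others, and 1407, 1415, 1288 and 1623 in nontransgenic mice. The groups were well apart, with a log2 change of 0.74 (SE 0.18, adjusted p = 0.00959), or 0.54 (SE 0.08, adjusted p = 0.000319) without the mouse of lowest depth. Exons of Ipo4 overlap those of Tm9sf1 on the same strand, so reads there could belong to either gene.

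The 2 transportins that carry RNA-binding proteins moved in opposite directions. Tnpo2, transportin-2, which reads the proline-tyrosine signal of RNA-binding proteins such as hnRNP A1 (uc009moz.2, mm9 chr8:87560814-87581482), gave 7383 normalized counts in the bigenic mouse of lowest depth, 5112, 5379 and 5867 in the others, and 3747, 3716, 3698 and 4051 in nontransgenic mice. Its log2 change was 0.63 (SE 0.11, adjusted p = 0.00223). Tnpo1, transportin-1, which reads the same signal (uc007rpf.1, mm9 chr13:99608974-99696339), gave 794 in the mouse of lowest depth, 1074, 966 and 944 in the other bigenic mice, and 1192, 1257, 1168 and 1226 in nontransgenic mice. The log2 change of Tnpo1 was -0.37 (SE 0.10, adjusted p = 0.0149). In both genes the groups did not overlap, and without the mouse of lowest depth the log2 changes were 0.52 for Tnpo2 and -0.29 for Tnpo1. Tnpo3, which carries splicing factors of the SR family, was higher, with 2984 in the mouse of lowest depth, 2548, 2428 and 2414 in the other bigenic mice, and 2093, 1864, 2052 and 2198 in nontransgenic mice (log2 change 0.34, SE 0.09, adjusted p = 0.0173).

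Ipo7 and Ipo8, a pair of close relatives, were both higher. Ipo7, an importin for ribosomal proteins and histone H1 (uc009jeu.1, mm9 chr7:117161939-117198628), gave 7377 normalized counts in the bigenic mouse of lowest depth, 6328, 5854 and 5784 in the others, and 4910, 4295, 4342 and 4869 in nontransgenic mice (log2 change 0.46, SE 0.09, adjusted p = 0.00498). Ipo8 gave 3061 in the mouse of lowest depth, 2034, 2241 and 2182 in the other bigenic mice, and 1791, 1719, 1639 and 1860 in nontransgenic mice (log2 change 0.42, SE 0.12, adjusted p = 0.0223). In neither gene did the groups overlap. Ipo11, which imports the ubiquitin-conjugating enzyme UbcM2, was lower, with 1202 in the mouse of lowest depth, 1767, 1648 and 1592 in the other bigenic mice, and 2095, 1883, 1929 and 1860 in nontransgenic mice (log2 change -0.34, SE 0.12, adjusted p = 0.047). Its groups did not overlap, but Ipo11 kept its call in 2 of the 8 fits that left out a mouse. The other 4 import receptors, Kpnb1, Ipo5, Ipo9 and Ranbp6, had log2 changes between -0.11 and 0.20 and did not pass.

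**Figure D2:**
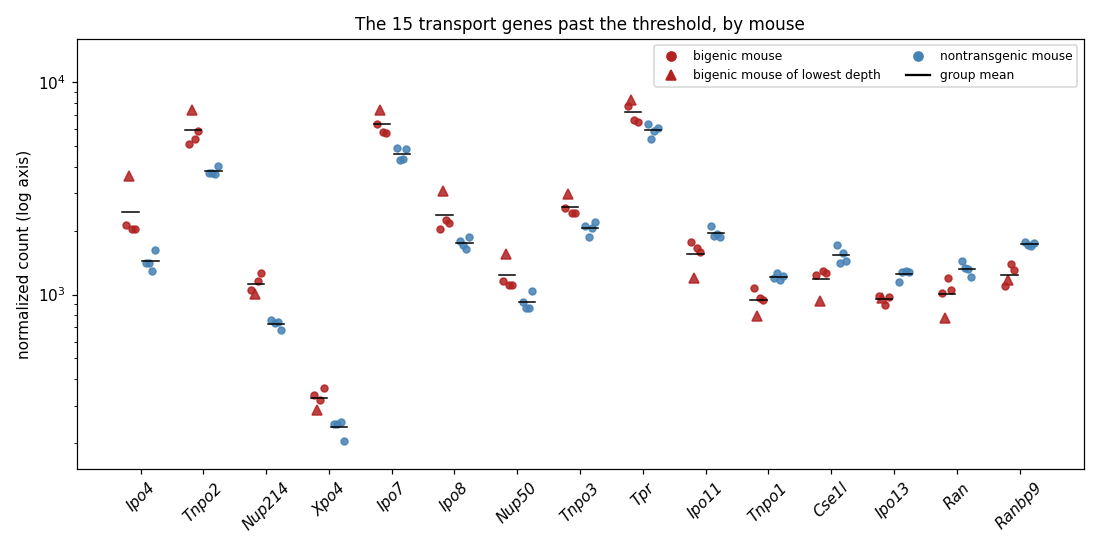
Normalized counts (y axis, log scale) of the 15 called genes in every mouse, ordered from the highest to the lowest log2 change, with the 4 bigenic mice to the left and the 4 nontransgenic mice to the right of each gene and a line at each group mean. The groups do not overlap in any of the 15, and the triangle, the bigenic mouse of lowest depth, is the highest or lowest bigenic mouse in 13 of them.

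Of the 7 exportins and two-way carriers, 1 was called higher and 2 lower (42.9%, with 35.9% of all genes). Xpo1, exportin-1, the receptor for leucine-rich export signals (uc007iet.1, mm9 chr11:23156041-23198249), gave 2531 normalized counts in the bigenic mouse of lowest depth, 3406, 3562 and 3463 in the others, and 3139, 3003, 2933 and 3186 in nontransgenic mice. With all mice its log2 change was 0.07 (SE 0.11, adjusted p = 0.653). The other 3 bigenic mice all lay above the nontransgenic mice, and without the mouse of lowest depth the log2 change was 0.18 (SE 0.06, adjusted p = 0.0235).

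Cse1l, the exportin that returns importin-α to the cytoplasm (uc008nys.2, mm9 chr2:166731540-166771889), was lower, with 933 normalized counts in the bigenic mouse of lowest depth, 1230, 1297 and 1259 in the others, and 1718, 1407, 1562 and 1446 in nontransgenic mice (log2 change -0.39, SE 0.12, adjusted p = 0.0275). Ipo13, a two-way carrier that imports the SUMO-conjugating enzyme Ubc9 and exports a translation factor (uc008ujg.1, mm9 chr4:117567091-117587604), was lower too, with 964 in the mouse of lowest depth, 983, 889 and 972 in the other bigenic mice, and 1142, 1271, 1287 and 1282 in nontransgenic mice (log2 change -0.39, SE 0.07, adjusted p = 0.0035). The bigenic mouse of lowest depth lay among the others for Ipo13. Xpo4, which exports the translation factor eIF5A (uc007udf.1, mm9 chr14:58199839-58284267), was higher, with 285 in the mouse of lowest depth, 338, 320 and 363 in the other bigenic mice, and 245, 246, 251 and 205 in nontransgenic mice (log2 change 0.46, SE 0.11, adjusted p = 0.0115). Xpo4 fell under the filter of 10 RPM in 1 nontransgenic mouse. Exons of Xpo4 overlap those of Lats2 on the same strand, so reads there could belong to either gene. In all 3 genes the groups did not overlap. Xpo5, Xpo6 and Xpo7 had log2 changes between 0.01 and 0.12 and did not pass.

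Ran, the GTPase that gives transport its direction (uc008zsr.1, mm9 chr5:129525944-129530198, 6 exon blocks), was lower in bigenic mice. It gave 776 normalized counts in the mouse of lowest depth, 1018, 1193 and 1047 in the other bigenic mice, and 1437, 1329, 1321 and 1208 in nontransgenic mice. The groups did not overlap, but the highest bigenic value was close to the lowest nontransgenic one. Its log2 change was -0.41 (SE 0.13, adjusted p = 0.0296), or -0.29 without the mouse of lowest depth (adjusted p = 0.0138). Ran kept its call in 4 of the 8 fits that left out a mouse. Only 54.8% of the 50-base windows of Ran exons are unique in the genome, and reads from the rest were not counted.

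The genes that act on Ran did not pass. Rcc1, the exchange factor that loads Ran with GTP in the nucleus, gave 397 normalized counts in the bigenic mouse of lowest depth, 238, 217 and 226 in the others, and 181, 157, 197 and 185 in nontransgenic mice. Its groups did not overlap, and it lay just outside the threshold (log2 change 0.54, SE 0.19, adjusted p = 0.0504). Rcc1 reached 10 RPM in no nontransgenic mouse and so entered the test through the bigenic mice, and its exons overlap those of Snhg3 on the same strand. Rangap1, which makes Ran hydrolyse GTP at the cytoplasmic face, gave 8973 in the mouse of lowest depth, 4616, 4238 and 4359 in the other bigenic mice, and 4062, 3888, 4073 and 4744 in nontransgenic mice (log2 change 0.33, SE 0.21, adjusted p = 0.251). Without the mouse of lowest depth the log2 change of Rangap1 was 0.07. Ranbp1, a coactivator of Rangap1, gave 1228 in that mouse and 811, 638 and 531 in the other bigenic mice, against 546, 506, 563 and 585 (log2 change 0.47, SE 0.22, adjusted p = 0.113). Ranbp3, a cofactor of exportin-1, had a log2 change of -0.04 (SE 0.08), and Ranbp3l of -0.44 (SE 0.18, adjusted p = 0.0811).

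Nxf1, which carries most mRNA out of the nucleus, gave 625 normalized counts in the bigenic mouse of lowest depth, 974, 1228 and 1157 in the others, and 1266, 1222, 1274 and 1446 in nontransgenic mice. Its log2 change was -0.43 (SE 0.19, adjusted p = 0.097), or -0.22 without that mouse (adjusted p = 0.0675).

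Ranbp9 and Ranbp10 carry the name of Ran-binding proteins but are scaffold proteins of a ubiquitin ligase and not transport receptors. Ranbp9 (uc011yyu.1, mm9 chr13:43498042-43576342) gave 1168 normalized counts in the bigenic mouse of lowest depth, 1092, 1394 and 1306 in the others, and 1763, 1714, 1701 and 1745 in nontransgenic mice. Its groups were far apart, with a log2 change of -0.49 (SE 0.09, adjusted p = 0.00242), the lowest log2 change of the called genes. Ranbp10 gave between 681 and 943 in bigenic mice and between 611 and 825 in nontransgenic mice, a log2 change of 0.15 (SE 0.12, adjusted p = 0.363).

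The balance within pairs of related genes was compared for 6 pairs, as the log2 ratio of 2 normalized counts in each mouse. A ratio within a mouse hardly depends on how that mouse was scaled. The exact two-sided permutation test over 70 arrangements of the mice cannot give a p under 0.0286. The ratio of Tnpo1 to Tnpo2 averaged -2.64 ± 0.41 in bigenic mice and -1.65 ± 0.07 in nontransgenic mice (SD, n = 4), a difference of -0.99 (exact p = 0.0286, adjusted p = 0.0571 over the 6 pairs). All bigenic mice, from -3.22 to -2.25, lay below all nontransgenic mice, from -1.72 to -1.56. The ratio of Ranbp9 to Ranbp10 averaged 0.66 ± 0.25 against 1.29 ± 0.18, a difference of -0.64, and that of Kpna3 to Kpna4 averaged -0.89 ± 0.24 against -0.42 ± 0.11, a difference of -0.47. In these 2 pairs as well the groups did not overlap, with the same exact p of 0.0286, although the values of single genes from which they come are those given above and are no independent evidence.

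For Kpna3 and Kpna4 the bigenic mouse of lowest depth lay on the same side of the nontransgenic mice as the other bigenic mice. Its log2 ratio of -0.56 was nearest to the nontransgenic mice, whose lowest was -0.52, and the other 3 bigenic mice gave -0.85, -1.01 and -1.12. The other 3 pairs overlapped between groups. The difference was -0.14 for Kpna1 to Kpna6 (exact p = 0.343), -0.17 for Ipo5 to Ranbp6 (exact p = 0.171) and 0.03 for Ipo7 to Ipo8 (exact p = 0.8), which both rose.

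**Figure D3:**
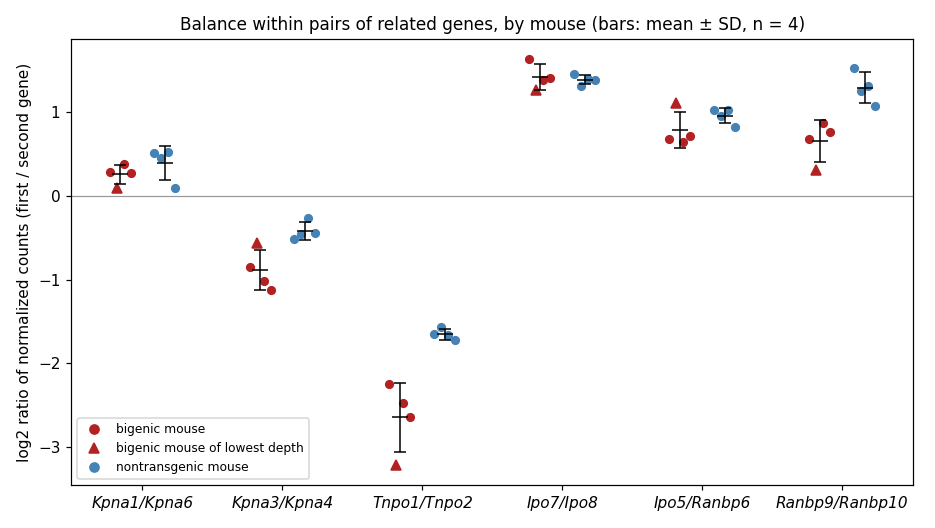
The log2 ratio of the normalized counts of 2 related genes (y axis, first over second gene) in every mouse for 6 pairs, with mean ± SD of 4 mice per group. Bigenic mice lie below nontransgenic mice without overlap for Kpna3/Kpna4, Tnpo1/Tnpo2 and Ranbp9/Ranbp10, and the groups overlap for the other 3 pairs.

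The effect of the bigenic mouse of lowest depth differed between genes. Leaving it out added 9 calls to the 15, of which 8 were higher (Kpna4, Kpnb1, Nup153, Nup160, Nup205, Nup93, Rcc1 and Xpo1) and 1, Pom121, was lower. With all mice but with the trend in GC content and exon length removed, 20 genes were called (12 higher and 8 lower; 37.7%, with 38.4% of all genes), among them all 15 and also Kpna4, Kpnb1, Pom121, Ranbp3 and Ranbp6. Kpna4, Kpnb1 and Pom121 were gained in both ways. In the importin-β family, each way called 12 of 18 genes (66.7%), but not the same 12. Xpo1 was called only without the mouse of lowest depth, and Ranbp6 only with the trend removed. The share of all genes was 45.6% without the mouse of lowest depth and 38.4% with the trend removed.

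**Figure D4:**
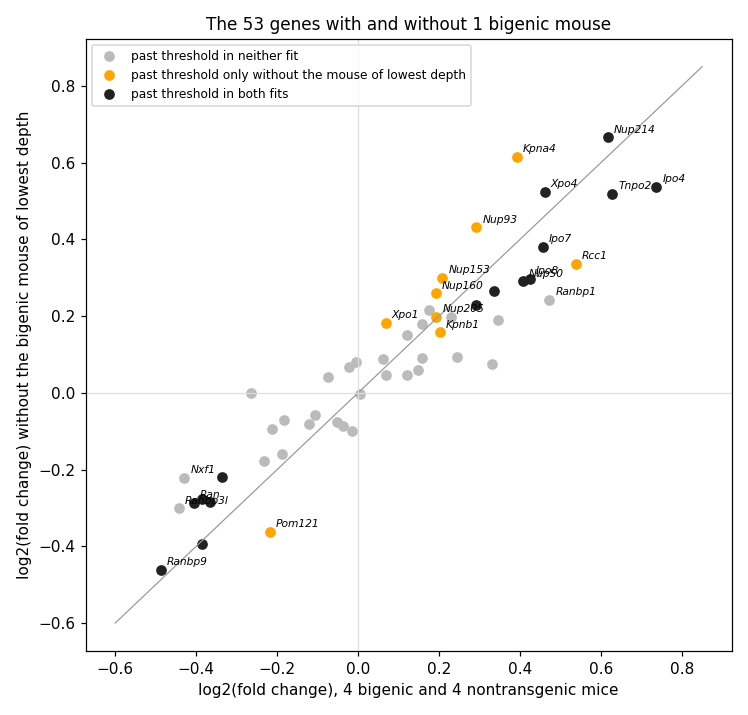
The log2 fold change of the 53 genes without the bigenic mouse of lowest depth (y axis) against that with all 8 mice (x axis), where each point is a gene and the line marks equal values. The 15 black genes passed the threshold in both fits, and the 9 orange genes, Kpna4 and Nup93 farthest above the line, passed only without that mouse.

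8 genes were called with all mice and in each of the 8 fits that left out a mouse: Nup214, Tnpo2, Ipo4, Ipo7, Xpo4, Ranbp9, Ipo13 and Tnpo1. The other 7 calls depended on which mice entered. Ipo11 lost its call in 6 fits, Tpr in 5, Ran in 4, Nup50 and Ipo8 in 3, Cse1l in 2 and Tnpo3 in 1. Most of these losses came without 1 of 3 nontransgenic mice, when 9 of the 53 genes were called each time (17.0%, with between 25.1% and 26.0% of all genes). 24 of the 53 genes were called in no such fit. The shares of all genes called in every such fit, or in none, were not counted. Whether the 8 and the 24 differ from other genes is therefore not known.

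Expression levels were compared between genes per kilobase of exon, as normalized counts per kb in nontransgenic mice. The exon length is that of all annotated exons of the gene joined, which can differ from that of the transcript counted. The highest levels were those of Ipo7 (1477), Rangap1 (1305), Ranbp2 (1007), Ipo5 (918), Kpnb1 (887) and Tnpo2 (762). Transportin-2 thus stood above transportin-1, at 141 normalized counts per kb, before any change. The lowest levels were those of Xpo4 (32.6), Rcc1 (46.8) and Nup160 (56.7). The importin-α genes measured lay within a narrow span, from 333 for Kpna4 to 532 for Kpna3.

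Related genes that the choice by symbol left out were compared as lists. The shares called are to be read beside the 35.9% of all genes called with all mice and the 45.6% called without the bigenic mouse of lowest depth. The lists share some genes. Of 12 further pore genes (13 transcripts), 1 was higher and 1 lower with all mice (15.4%), with a median log2 change of 0.04. Without that mouse 3 were higher and 3 lower (46.2%). The higher gene was Tor1aip2 (uc007dbx.2, log2 change 0.37, adjusted p = 0.00493), which is counted again among the genes of the nuclear envelope. Another transcript of Tor1aip2 was not called (uc011wub.1, log2 change -0.03, adjusted p = 0.898). The lower gene was Nupl1, a channel nucleoporin that partners Nup62 and Nup54, with 546 normalized counts in the mouse of lowest depth, 582, 590 and 589 in the other bigenic mice and 726, 714, 696 and 749 in nontransgenic mice (log2 change -0.32, SE 0.07, adjusted p = 0.00663). Of 15 further transport factors, 3 were higher and 2 lower (33.3%), with a median of 0.03 and the same counts without that mouse. Xpot, the exportin for tRNA, was lower (log2 change -0.52, SE 0.09, adjusted p = 0.00184), with 1129 in the mouse of lowest depth and 1348, 1381 and 1396 in the other bigenic mice, against 2036, 1780, 1900 and 1826. Nmd3, the adaptor that takes the large ribosomal subunit out through exportin-1, was higher (log2 change 0.62, SE 0.11, adjusted p = 0.0024), with 1082 in the mouse of lowest depth and 950, 759 and 804 in the other bigenic mice, against 593, 577, 563 and 576. Rcc2, a relative of Rcc1, was higher as well (log2 change 0.69, adjusted p = 0.00475).

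Of 18 mRNA export factors, 3 were higher and 2 lower (27.8%), with a median log2 change of 0.07, and 4 were higher and 3 lower without the mouse of lowest depth (38.9%). Ddx25, an RNA helicase related to the pore helicase Ddx19, was lower (log2 change -0.58, adjusted p = 0.00293), whereas Bat1a, the helicase that loads export factors on spliced mRNA, and Zc3h11a were higher (0.32 and 0.44, adjusted p = 0.0178 and 0.0193). Of 17 genes of the nuclear envelope and lamina (19 transcripts), 5 were higher and 1 lower (31.6%), with a median of 0.17, and 7 were higher and 2 lower without that mouse (47.4%). Sun2, an inner membrane protein that links the lamina to the cytoskeleton, had the largest log2 change in the lists of pore, transport, export and envelope genes, with 1969 normalized counts in the mouse of lowest depth, 1823, 1405 and 1748 in the other bigenic mice and 687, 778, 687 and 765 in nontransgenic mice (log2 change 1.24, SE 0.11, adjusted p = 5.24e-05). Lmnb1, the gene of lamin B1, was also higher (log2 change 0.41, adjusted p = 0.0183).

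Cell type markers were compared because the cortex is a mixture. The summed neuronal markers ranged from 187420 to 194171 normalized counts in 3 bigenic mice, all below the 228078 to 247681 of the nontransgenic mice. The bigenic mouse of lowest depth stood at 251565, above them all. Such a sum follows mainly the markers with the highest counts. Among these, Camk2a and Syt1 were lower (log2 changes -0.88 and -0.44, adjusted p = 0.000176 and 0.00581). Thy1 was higher (0.77, adjusted p = 3.47e-05), so the sum does not describe every neuronal marker. Of 14 neuronal markers 2 were higher and 6 lower (57.1%, against 35.9% of all genes), and without that mouse 3 were higher and 7 lower (71.4%, against 45.6%). Of 10 astrocyte markers 5 were lower and 0 higher (50%, when 15.4% of all genes were lower). Their sums were 137945 in the mouse of lowest depth and 155190 to 164271 in the other bigenic mice, against 173634 to 189388. Of 9 microglial markers 5 were lower and 0 higher (55.6%, beside the same 15.4%), with sums of 5268 in that mouse and 5775 to 6873 in the others, against 7057 to 8321. For both glial types the bigenic sums lay below all nontransgenic sums. Without that mouse 6 astrocyte (60%) and 5 microglial markers (55.6%) were lower, when 45.6% of all genes were called in either direction. Of 10 oligodendrocyte markers 1 was higher and 0 lower (10%, against 35.9% of all genes), with sums of 66375 in that mouse and 69216 to 88012 in the others, against 67095 to 84083. Of 7 endothelial markers 0 were higher and 1 was lower (14.3%, against 35.9%), with sums of 4139 in that mouse and 4514 to 4724 in the others, against 4345 to 5589. Of 5 choroid plexus markers 4 were higher (80%, when 20.5% of all genes were higher), and 5 without that mouse (100%). Their median log2 change was 2.40, with sums of 14101 in that mouse and 20575 to 29169 in the others, against 6544 to 8183. No tested marker was at 0 in any mouse. The part of these cell types in the changes of the transport genes was not tested.

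TDP-43 is known to bind RNA rich in UG repeats, so the gene bodies were searched on the sense strand for tracts of at least 6 TG repeats. Such a tract was present in 44 of the 53 transport genes (83.0%) and in 73.6% of 10246 genes with a position. Per 100 kb of gene the median was 7.13 tracts for the transport genes and 7.71 for all genes, so the higher share went with longer gene bodies (median 42.2 kb against 28.3 kb). The median was 4.84 tracts per 100 kb in the 9 genes called higher and 9.62 in the 6 called lower, with no test. Single genes did not follow these medians closely. Per 100 kb, with the number of tracts in brackets, the lower genes Ran, Ipo11 and Tnpo1 held 23.50 (1), 12.63 (18) and 10.30 (9). Ranbp9 held 8.94 (7), Cse1l 4.96 (2) and Ipo13 0. The value of Ran rests on 1 tract in 4255 bases. Of the higher genes, Tnpo3 held 13.03 per 100 kb (9), Ipo8 11.52 (7), Xpo4 7.11 (6) and Nup50 5.11 (1). Tnpo2 held 4.84 (1), Nup214 3.77 (3), Tpr 3.50 (2), and Ipo4 and Ipo7 0. The tracts below are shown because Ran and Ranbp9 were lower and because those of Rangap1 and Xpo1 are exonic examples (mm9, sense strand, tract in capitals). Exons of Nup133, Nup160, Nup93 and Xpo7 held a tract as well. They lie at chr5:129528446-129528475 in an intron of Ran, chr13:43523457-43523486 in an intron of Ranbp9 (minus strand), chr15:81535437-81535466 in an exon of Rangap1 (minus strand) and chr11:23196719-23196748 in an exon of Xpo1.
Ran intron: ttgttttcgTGTGTGTGTGTGcactttgcc
Ranbp9 intron: agttttgtcTGTGTGTGTGTGtctgtccct
Rangap1 exon: ttggtttggTGTGTGTGTGTGggtatgtac
Xpo1 exon: ctttttgttTGTGTGTGTGTGTGTGTGctg

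Promoters of 300 bases (250 before and 50 after the gene start, RefSeq GRCm38.p6) were given for 43 of the 53 genes and searched on both strands for 7 motifs, none of which holds the letters of another. The NRF1 site, a palindrome bound by a regulator of housekeeping genes and spelled out in capitals in the stretches printed further on, was present in 5 of the 43 (11.6%), against 2.47% of 7448 genes tested and 0.971% of all 32851 promoters. The E-box CACGTG was present in 8 (18.6%, against 12.5% of genes tested), and 3 of these were called higher, namely Ipo4, Ipo7 and Tnpo2, and 1, Ran, was lower. The ETS motif CCGGAAG was present in 18.6% against 19.5%, the cAMP response element TGACGTCA in 6.98% against 3.91%, the YY1 motif AAGATGGCG in 9.3% against 3.91%, the GC box GGGCGG in 74.4% against 71.8%, and CCAAT in 41.9% against 43.3%. These shares were not tested, and a match of letters is a description of the promoter and not of binding.

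The 5 promoters with the NRF1 letters belonged to Ran, Nup50, Nup62, Nup107 and Xpo5, of which Nup50 was called higher and Ran lower. They are shown because this motif was the one whose share was highest as a ratio to that of other genes tested (sense strand, motif in capitals). They lie at chr5:129019941-129019970 for Ran, chr15:84923251-84923280 for Nup50, chr7:44816058-44816087 for Nup62, chr10:117792751-117792780 for Nup107 (minus strand) and chr17:46202716-46202745 for Xpo5.
Ran: cccgcagccaGCGCATGCGCgtggcagccc
Nup50: gggcgggcttGCGCATGCGCcgcgcgaccc
Nup62: ataagacaatGCGCATGCGCaacaggttgt
Nup107: gacgaaagtcGCGCATGCGCcgagcgggaa
Xpo5: acttccgcgcGCGCATGCGCcgtggcggct

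The E-box stretches of the called genes, Ipo7, Tnpo2, Ipo4 and Ran, are shown to set beside the NRF1 stretches. They lie at chr7:110018166-110018195 for Ipo7, chr8:85036726-85036755 for Tnpo2, chr14:55635653-55635682 for Ipo4 (minus strand) and chr5:129020026-129020055 for Ran (motif in capitals).
Ipo7: gtgggagccagcCACGTGggccgtgtccgc
Tnpo2: tacttattctctCACGTGactcaacttggc
Ipo4: tgtcggagtctcCACGTGccgatcctcccc
Ran: gctcggccggccCACGTGacccgccgcccc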

How the data were processed

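Poly(A)-selected RNA from the cortex of 8 mice had been sequenced as 50-base single reads. The authors trimmed reads with cutadapt, mapped them to mm9 with Bowtie 0.12.7, kept uniquely mapping reads, counted reads per exon with bedtools and summed them into genes. The deposited values are a score of whole numbers, normalized between mice by the authors in a way that is not given in the sources used here, and then rounded. They are called normalized counts. The second deposited table also holds the fold changes and p-values of the authors from DESeq2, which were not used. It gave the gene symbols. Columns of per-sample values left unused numbered 0.

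Columns name the group of a mouse but no replicate number. Genes that reached 10 RPM, relative to the total of their column, in any mouse (10588) were compared on log2(normalized count + 1) with limma 3.58.1 in R 4.3.3 (lmFit, eBayes with a trend, two-sided) and the Benjamini-Hochberg correction, with a threshold of 0.05. A fold change on this scale understates the change of low genes. Whole reads could not be recovered, so no count test was run. In data simulated for this comparison over 10588 genes, the test called 177 of 200 genes changed by a factor of 2 and 14 unchanged genes. The simulated noise was independent between genes and mice. The largest log2 change of the 53 genes was 0.74, under a factor of 2. The simulated share called therefore does not apply to the smaller changes reported here. Depth was estimated from the spacing of rounded values up to 300, which on simulated columns gave 8 of 8 steps within 1 percent.

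Ratios of related genes were compared by exact permutation (Python 3.11.15, scipy 1.17.1, numpy 2.4.6, pandas 2.3.3). Gene positions and exon lengths are from mm9 (NCBIM37) with GENCODE, and promoters from RefSeq. Alternatives were other pseudocounts (0.1 and 10), no filter or a filter in every mouse, columns rescaled to the same total, quantile normalization, array weights, an adjusted threshold of 0.01, a fold change of at least 1.5, each mouse left out in turn and, added after seeing the data, removal of the trend in GC content and exon length, which 97.3% of genes tested had.

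The 53 genes and all lists were chosen with earlier results of these data known. Every one of the 53 genes could be named. All mice were given for called genes whose groups did not overlap and for Kpna1, Kpna3, Kpna4, Kpna6, Kpnb1, Xpo1, Ran and Tnpo1. Other genes shown by mouse were chosen after their values were seen. Of the other lists, at most the 3 genes with the smallest adjusted p were named.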

Additional observations from a re-analysis of the deposited data

Results flagged for a closer look

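In 10 of 106 groups of 4 mice (53 genes, 2 groups), the gap from the highest or lowest mouse to the nearest other mouse, as a share of the range of the group, exceeded Dixon's critical value for groups of this size. Chance flags about 1 group in 20. In 7 groups the mouse was the bigenic mouse of lowest depth. It was the highest for Ipo4 (3607 normalized counts, gap share 0.946), Rangap1 (8973, 0.92), Rcc1 (397, 0.883), Nup50 (1553, 0.871) and Nup133 (1127, 0.852), and the lowest for Nup54 (97, 0.89) and Xpo1 (2531, 0.849). The part of its depth in these values was not tested. In nontransgenic mice, 1 mouse was lowest for Ipo13 (1142, 0.89), and another was lowest for Xpo4 (205, 0.87) and highest for Tnpo2 (4051, 0.861). In these 3 genes the nontransgenic mice lay on the same side of all bigenic mice.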

How the results depend on the processing

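No call among the 15 changed sign under any alternative. This says little of stability, because the groups did not overlap in any of the 15. Leaving out a mouse, another pseudocount, another filter or a stricter threshold could therefore not turn a sign. Array weights gave 37 calls (25 higher and 12 lower; 69.8%, with 61.0% of all genes). A threshold of 0.01 left 6 (4 higher and 2 lower; 11.3%, with 19.4% of all genes), and a fold change of at least 1.5 left 3 (3 higher and 0 lower; 5.66%, with 12.4%). Leaving out each mouse gave between 9 and 24 calls, between 5 and 17 higher and between 3 and 7 lower, with 24 without the bigenic mouse of lowest depth and 9 without each of 3 nontransgenic mice. The cause was not tested. Both other pseudocounts gave 15 calls, no filter 13 (24.5%, with 19.9%), a filter in every mouse 15 of 49 (30.6%, with 37.7%), rescaled columns 16 (30.2%, with 35.6%), quantile normalization 17 (32.1%, with 36.4%) and removal of GC content and length, chosen after seeing the data, 20 (37.7%, with 38.4%). 6 genes that did not pass with all mice changed sign. The log2 fold change of Kpna3 turned to 0.019 with array weights and 0.027 with the GC trend removed, and ranged from -0.12 to 0.040 with each mouse left out. Similarly, the log2 fold change of Xpo7 turned to -0.046 with quantile normalization and -0.029 with the GC trend removed, and ranged from -0.0056 to 0.027. The log2 fold change of Ipo5 turned to 0.0083 with the GC trend removed and ranged from -0.0996 to 0.034. With these alternatives, the log2 fold change of Nup155 turned to 0.11 with array weights and 0.011 with the GC trend removed, and ranged from -0.073 to 0.068. The log2 fold change of Nup210 turned to 0.17 with array weights and ranged from -0.079 to 0.080. Finally, the log2 fold change of Xpo6 turned to -0.0061 with the GC trend removed. With each mouse left out, the difference in the ratio of Ipo7 to Ipo8 ranged from -0.039 to 0.084, and that of Kpna3 to Kpna4 from -0.57 to -0.39, where the exact p rose to 0.0571 without any 1 nontransgenic mouse. The ratios of the other 4 pairs kept their direction, which says little of stability where the groups do not overlap. No paired analysis was possible because the columns carry no replicate number. Xpo4, Rcc1, Ranbp3l and Nup54 were under 10 RPM in at least 1 mouse.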
